A study of Homo sapiens with 4 samples.

Results

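The genes of Wnt signalling were examined for nearby H3K27ac, the acetylation of histone H3 at lysine 27 that marks active promoters and enhancers, in the established human melanoma line A375. Members were the regions that the authors' deposited table names with a WNT, FZD, SFRP or DKK gene or with LRP5, LRP6, AXIN1, AXIN2, LEF1, TCF7, TCF7L1, TCF7L2, RNF43 or ZNRF3. The rule used gene names and no measured value. This gave 324 regions beside 45 genes, of 91107 distinct regions and 17301 gene names in all. DKK4 and FZD10 were not analysed here.

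The labels describe 4 chromatin immunoprecipitation libraries of the cell line: 2 from cells given isopropanol as vehicle and 2 from cells given the medium-chain fatty acid octanoate at 1 mM, both for 48 hours. The cells are 1 line, kept in DMEM with serum, and no other agent or allele is named. Whether the libraries of a group came from separate cultures is not stated in the labels. The values analysed were those of 1 comparison, given per region as a mean level in normalized units, a log2 fold change with its standard error, a p-value and an adjusted p-value. No value per library was analysed, so the spread between libraries is unseen and each error is the standard error of the authors' model. The table's header does not name the numerator of the fold change, so changes are called positive or negative and not gains or losses under octanoate. An adjusted p-value was read as computed only where it was under 1, as it was for 131 of the 324 Wnt gene regions and 36436 of all. All levels, log2 fold changes, standard errors (written after ±) and p-values below come from the authors' deposited table, where p is unadjusted unless called adjusted. Regions with an adjusted p under 1 are called tested regions. Assigned genes are the authors' assignments, and an assignment does not show that a region regulates the gene.

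The label of the cells was checked on the melanocytic and neural crest genes listed for it. In the authors' deposited table, 6 of 10 had a region at distance 0 from the start, led by SOX10 with a mean level of 774, while MLANA, TYR, TYRP1 and DCT had none. For the epithelial list the count was 3 of 6, with KRT8 and KRT18 both at 261.328. Some lines repeat 1 region for another gene, so KRT8 and KRT18 may share a region. For the blood, endothelial and liver lists the count was 1 of 5, 1 of 3 and 1 of 3, with levels of at most 42.9 in the authors' deposited table.

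Wnt proteins are secreted, lipid-modified ligands that bind Frizzled (FZD) receptors and the co-receptors LRP5 and LRP6. In the branch that acts through beta-catenin, binding disables a destruction complex built on the AXIN scaffolds, beta-catenin accumulates, and it activates transcription together with the DNA-binding factors LEF1, TCF7, TCF7L1 and TCF7L2. SFRP proteins bind the ligands and DKK1 and DKK2 block the co-receptors, whereas RNF43 and ZNRF3 are ubiquitin ligases that remove Frizzled from the cell surface. Several of these genes, such as AXIN2, LEF1, RNF43, ZNRF3 and DKK1, are themselves well-known targets of beta-catenin. In melanoma, both beta-catenin signalling and the other branch, in which WNT5A acts, are known to vary with cell state.

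Promoter sequences are shown for 4 members whose regions at the start are described below, because they show how differently these marked promoters are built: an antagonist, the factor with the calls, another factor of the same family, and a receptor. Each is the 250 bases before a RefSeq promoter start (GRCh38.p14), read 5′ to 3′ on the strand of the gene. Each lay inside the H3K27ac region at distance 0. For DKK1, TCF7L2 and FZD4 that start is the outermost start of the gene in RefSeq. For LEF1 it lies within the gene, whose outermost RefSeq start is chr4:108168932, so its stretch is not matched in position to the others. Capitals mark matches on either strand to a TCF/LEF motif (CTTTGAA, the variant CTTTGAT, the variant CTTTGTA or the variant CTTTGTT) or to the GC box (GGGCGG). The positions are chr10:52314031-52314280 on the plus strand for DKK1, chr4:108166302-108166551 on the minus strand for LEF1, chr10:112949997-112950246 on the plus strand for TCF7L2 and chr11:86955396-86955645 on the minus strand for FZD4.
DKK1: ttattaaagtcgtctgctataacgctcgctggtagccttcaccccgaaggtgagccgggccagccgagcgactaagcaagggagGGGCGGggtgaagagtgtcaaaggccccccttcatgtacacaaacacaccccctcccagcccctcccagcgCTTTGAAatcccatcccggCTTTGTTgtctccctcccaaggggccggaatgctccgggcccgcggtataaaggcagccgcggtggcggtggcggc
LEF1: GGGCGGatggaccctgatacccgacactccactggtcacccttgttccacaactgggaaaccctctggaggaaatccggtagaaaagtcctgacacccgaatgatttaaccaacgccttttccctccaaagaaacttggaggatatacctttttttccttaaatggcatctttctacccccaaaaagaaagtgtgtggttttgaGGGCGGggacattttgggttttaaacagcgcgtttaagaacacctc
TCF7L2: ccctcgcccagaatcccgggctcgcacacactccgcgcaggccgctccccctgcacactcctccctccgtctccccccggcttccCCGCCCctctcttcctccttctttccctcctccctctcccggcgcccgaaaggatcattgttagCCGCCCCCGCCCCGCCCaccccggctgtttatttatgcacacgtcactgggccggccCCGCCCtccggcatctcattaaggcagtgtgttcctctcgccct
FZD4: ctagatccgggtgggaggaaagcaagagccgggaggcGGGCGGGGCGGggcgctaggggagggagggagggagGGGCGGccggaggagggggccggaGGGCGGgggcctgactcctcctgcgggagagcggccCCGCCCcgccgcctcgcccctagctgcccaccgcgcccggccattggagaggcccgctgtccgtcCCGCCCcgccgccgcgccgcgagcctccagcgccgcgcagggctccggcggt
The DKK1 stretch held 2 TCF/LEF matches, 1 GC box and 1 TATA box (TATAAA, left in lower case). The other 3 held no TCF/LEF match in these letters. LEF1 had 2 GC boxes at a G and C content of 47.6%, TCF7L2 had 5 at 68.0%, and FZD4 had 6 at 80.8%.

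Over the whole window of 300 bases, which adds 50 bases after the start, RefSeq promoters were matched for 32 of the 45 genes. A GC box was found in 27 of these 32, beside 44.6% of all 27305 promoters of that length. The TCF/LEF motif was found in 2 of the 32 (DKK1 and WNT3), beside 13.9% of all promoters. The TATA box was found in 3 (DKK1, FZD8 and TCF7), beside 3264 of all 27305 promoters. The E-box CACGTG was found in 0 and the E-box CATGTG in 1 (WNT2B), beside 7.43% and 11.2% of all promoters. The median G and C content of the 32 promoters was 71.2%, and that of all promoters 58.3%. A match describes letters only, and no match says only that these letters were not in this window.

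Wnt gene regions as a whole had values near those of the whole table. Their median log2 fold change was 0.30 (quartiles -0.03 and 0.55), and that of all regions was 0.28 (quartiles -0.02 and 0.54) in the authors' deposited table. Of the 324, 235 were positive and 89 negative, or 72.5% positive, beside 73.7% of all regions. Among tested regions the medians were 0.30 for the Wnt genes and 0.32 for all regions of the authors' deposited table, and 80.9% and 87.3% were positive. Median levels were 12.8 and 12.3 normalized units.

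Only 2 of the 131 tested Wnt gene regions had an adjusted p under 0.05, termed a call, both positive and both beside TCF7L2 in the authors' deposited table. Over all tested regions 1.67% were called, 1.65% as positive and 0.0192% as negative, so a count of 2 is near the background. Unadjusted p under 0.05 was held by 18.4% of all tested regions, and 17.9% of all tested regions had it together with a positive sign. Among the 131 tested Wnt gene regions it was held by 24, or 18.3%. With 4 further regions of lower level the number was 28 of 324, beside 8.99% of all regions. These 28 were spread over 15 genes and had positive fold changes in the authors' deposited table.

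Because most fold changes of the table were positive, each was also read after subtracting 0.32, the median over tested regions. On that scale 0 Wnt gene regions had an adjusted p under 0.05, beside 0.124% of all tested regions. Unadjusted p under 0.05 was then held by 11 of 131 (8.40%), beside 5.73% of all. Of these, 6 lay above the median, beside WNT2B, SFRP1, WNT10A, TCF7L2, WNT10B and WNT11. The other 5 lay below it, beside WNT9A, LRP5, LEF1, DKK3 and WNT7B. The adjusted p of these 11 ran from 0.511 to 0.832.

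**Figure D1:**
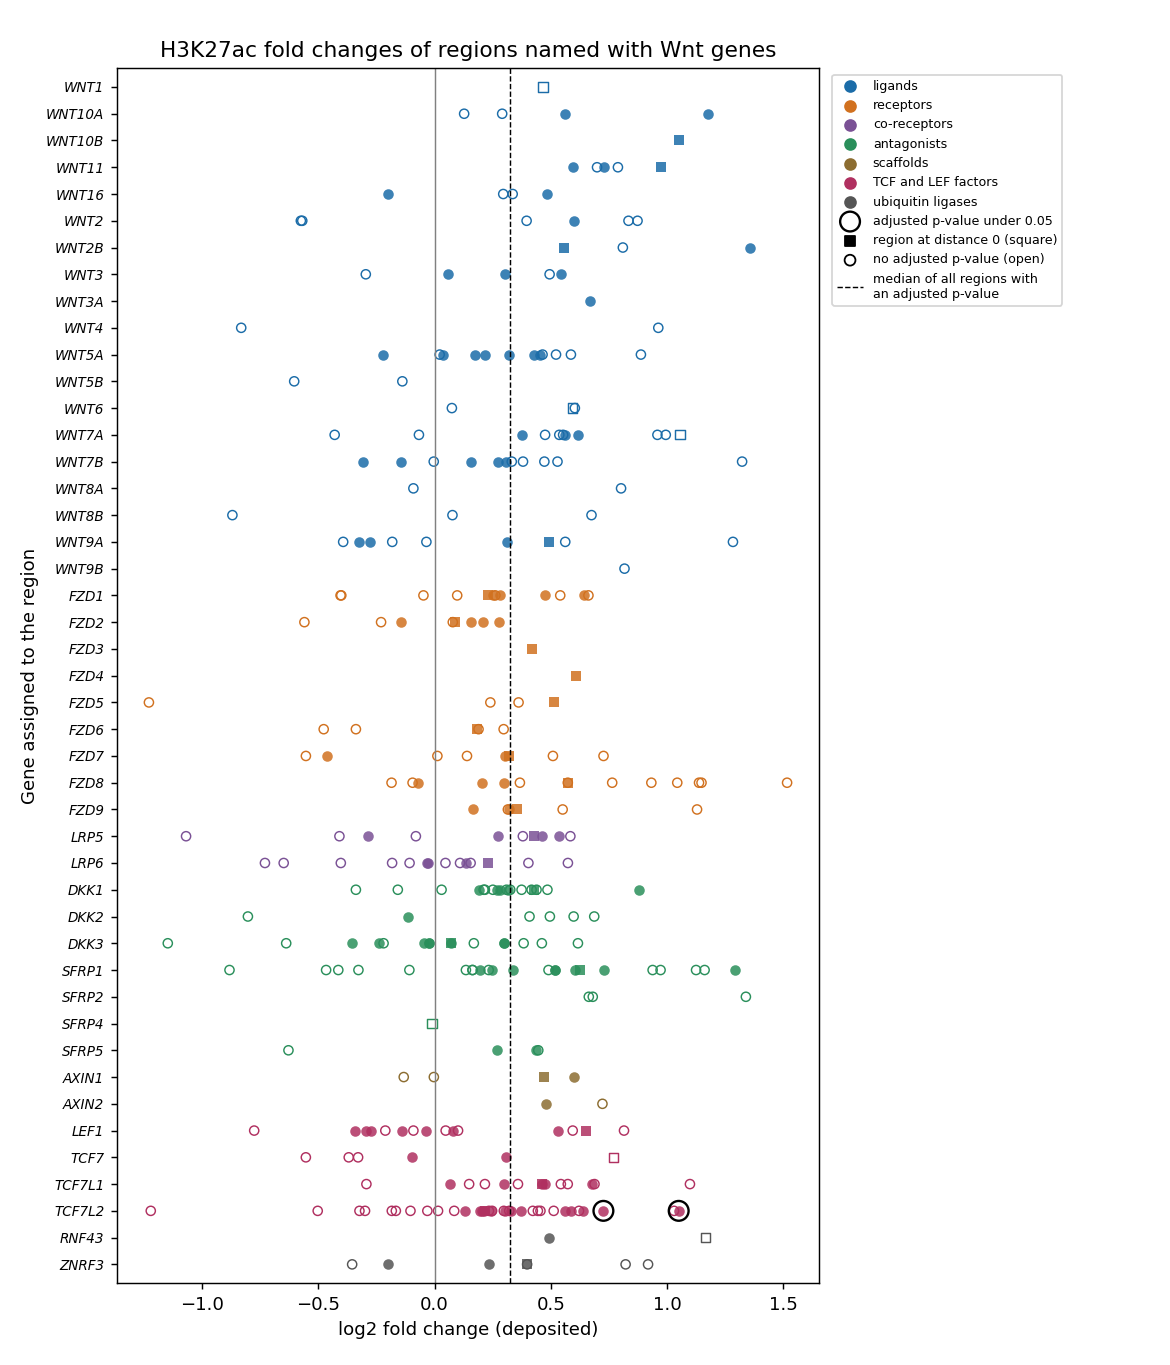
Deposited log2 fold change (horizontal axis) of each of the 324 regions, by assigned gene (vertical axis) and coloured by role; squares are regions at distance 0, open symbols were not tested, circles mark the 2 calls, and the dashed line is the median of all tested regions (0.32). Both calls are TCF7L2 regions, and the regions of LRP6 and DKK3 are spread about 0.

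**Figure D2:**
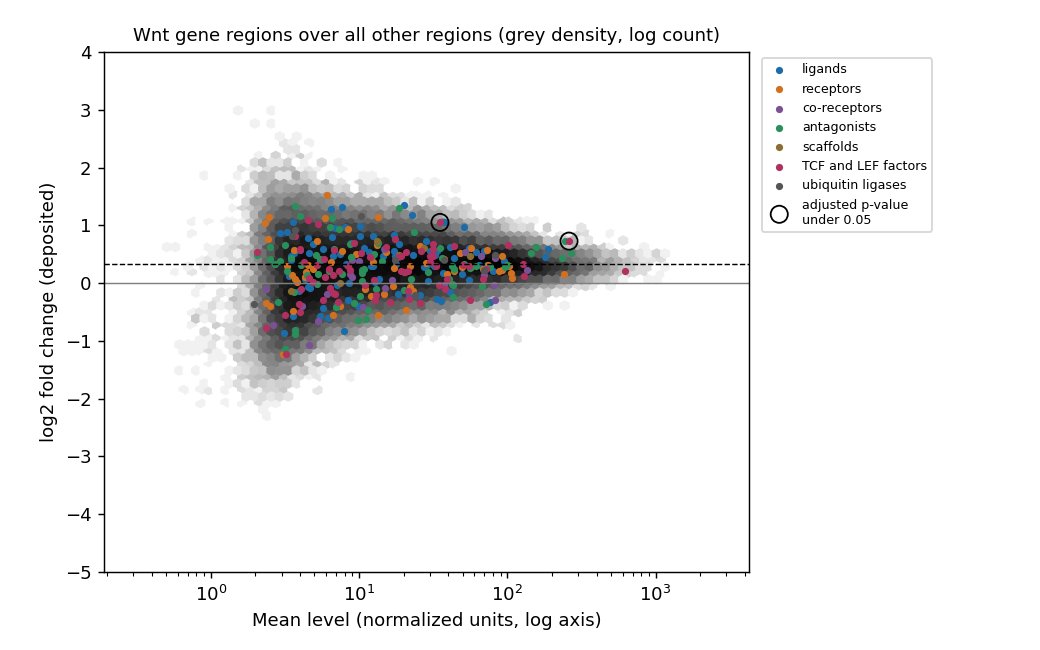
Deposited log2 fold change against mean level (log axis, normalized units) for the Wnt gene regions, coloured by role, over the density of all other regions in grey; circles mark the 2 calls. The Wnt gene regions lie within the cloud of the other regions at every level, and the region of highest level, at the start of TCF7L2, is at 617.

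Regions at gene starts were nearly all positive. Of the 45 genes, 29 had a region at distance 0, and 28 of these regions were positive in the authors' deposited table. The exception was SFRP4, at a level of 5.21. The median of the 29 was 0.47 (quartiles 0.32 and 0.61), while the 10642 regions at distance 0 of all genes had 0.36 (0.24 and 0.50), with 97.7% positive. For the 23 tested Wnt gene starts and the 9996 tested starts of all genes, the medians were closer, 0.43 and 0.35. Among tested ones, 8 of 23 Wnt gene starts (34.8%) had an unadjusted p-value under 0.05, beside 19.2% of the same kind for all genes. None of the 23 had an adjusted p-value under 0.05 in the authors' deposited table, beside 86 of the 9996 tested starts of all genes. Levels at Wnt gene starts had a median of 50.7, and those at all starts 83.7 normalized units.

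**Figure D3:**
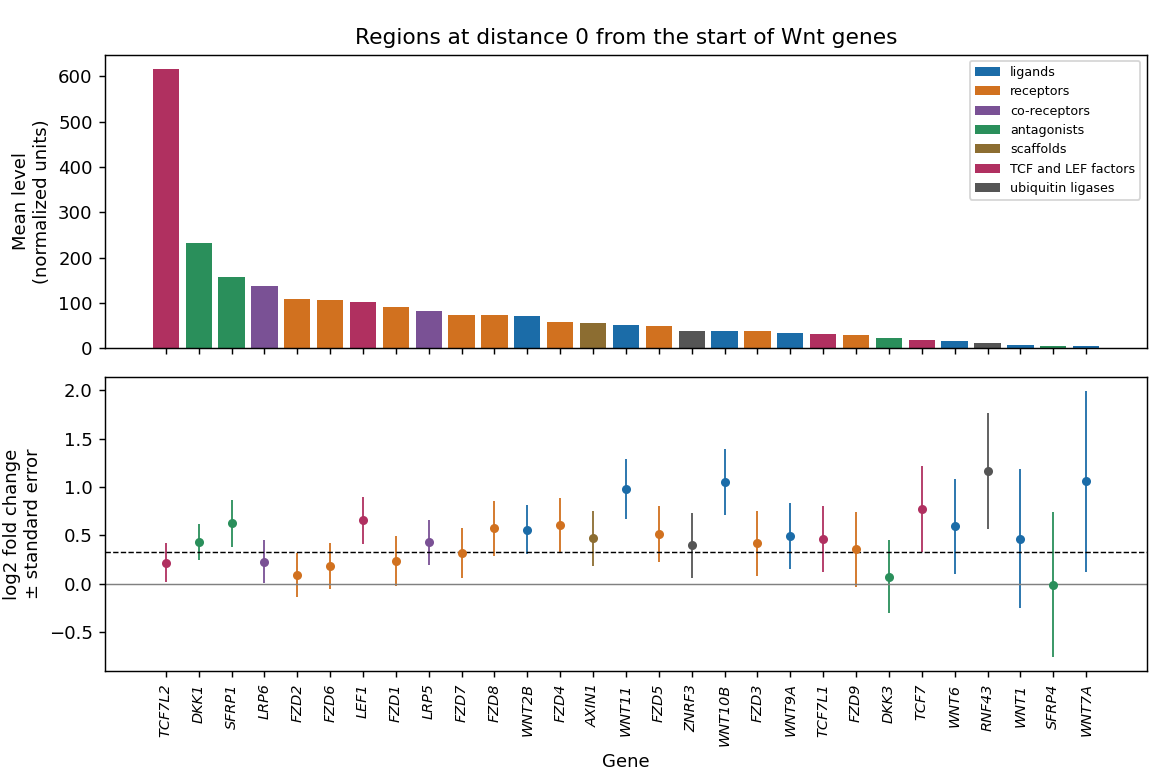
Mean level in normalized units (upper panel, bars) and deposited log2 fold change ± standard error (lower panel, points) of the 29 regions at distance 0, one per gene on the horizontal axis, coloured by role and ordered by level; the dashed line is the median of 0.32. TCF7L2 has the highest level, 617, and SFRP4 is the only gene with a value under 0.

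The 86 regions beside 19 WNT genes had a median log2 fold change of 0.46 (quartiles 0.04 and 0.62), the 34 tested ones had 0.40, and 28 of these 34 were positive in the authors' deposited table. None was called. An unadjusted p-value under 0.05 was held by 10 of the 86, beside 8.99% of all regions, and by 8 of the 34 tested ones (23.5%), beside 18.4% of all tested regions. The median level was 13.3 normalized units. Regions at distance 0 were found for 7 of the 19 genes, with levels from 3.60 at WNT7A to 70.1 at WNT2B and fold changes from 0.47 to 1.06. The largest, 1.06 ± 0.94, was that of the WNT7A region, which had the lowest level and was not tested.

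WNT11, a ligand known for signalling without beta-catenin, had 5 regions, all positive between 0.60 and 0.97 in the authors' deposited table. Its region at distance 0 (chr11:76206293-76209639) had a level of 50.7 and 0.97 ± 0.31 (unadjusted p-value 0.00173, adjusted 0.0708). The region of highest level beside any WNT gene, 187, lay 25.4 kb upstream of WNT11 with 0.60 ± 0.23 and an adjusted p of 0.155 in the authors' deposited table. One 52.4 kb past the start had 0.73 ± 0.36.

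WNT2B had 3 regions, all positive. One within the gene, 41.4 kb from the start (chr1:112507899-112509067), had the largest log2 fold change among Wnt gene tested regions, 1.36 ± 0.43 at a level of 20.1 (adjusted p = 0.0688) in the authors' deposited table. The start of WNT2B had 0.56 ± 0.26 at a level of 70.1. WNT2, its close relative, had 6 regions and none at distance 0, and its highest, of level 55.1, had 0.60 ± 0.28 (adjusted p = 0.225).

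WNT5A, a ligand of the branch without beta-catenin and a marker of invasive melanoma states, had 12 regions, 11 of them positive in the authors' deposited table. The highest, with a level of 178, lay 0.8 kb from the deposited start and within the gene (chr3:55484360-55489114), with 0.45 ± 0.24 (unadjusted p-value 0.0542). It also overlaps WNT5A-AS1 in RefSeq. The other WNT5A tested regions ran from -0.22 to 0.43. WNT5B, its paralog, had 2 regions, both negative, at levels of at most 6.13 in the authors' deposited table.

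Several WNT genes lie in pairs in the genome. In the pair of WNT10B and WNT1 on chromosome 12, which are 6.6 kb apart in RefSeq, the only WNT10B region covered the start with a level of 37.6 and 1.05 ± 0.34 (unadjusted p-value 0.00191, adjusted 0.0746). The only WNT1 region, also at the start, had a level of 6.67 and 0.47 ± 0.72 in the authors' deposited table. In the pair of WNT6 and WNT10A on chromosome 2, the WNT6 start had 0.59 ± 0.49 at a level of 14.7. A region within WNT10A had 1.18 ± 0.40 at a level of 22.8 (adjusted p = 0.0904) in the authors' deposited table. WNT3 had 5 regions and levels up to 61.3, while WNT9B, 14.5 kb away on chromosome 17, had 1 region of level 10.1. WNT9A had 9 regions, 5 of them negative, and one of level 76.6 had -0.33 ± 0.25, the most negative value among the ligand tested regions. WNT3A, which lies 59.1 kb from WNT9A on chromosome 1 with 1 coding gene between them, had 1 region with 0.67 ± 0.41.

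WNT7A and WNT7B had 11 regions each. The highest at WNT7A, with a level of 95.7, had 0.38 ± 0.24, and the highest at WNT7B, with a level of 72.9, had 0.31 ± 0.28 in the authors' deposited table. A small region 2.0 kb upstream of WNT7B had 1.32 ± 0.67 with an unadjusted p-value of 0.0471 at a level of 7.69. WNT16 had 4 regions, WNT8B 3, and WNT4 and WNT8A 2 each, all at levels of at most 25.6. The WNT4 region with the largest negative value had -0.83 ± 0.61 at a level of 7.91 in the authors' deposited table.

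Receptor genes were marked at the start without exception among the 9 FZD genes found. Their start regions had levels from 28.4 at FZD9 to 108 at FZD2 and log2 fold changes from 0.09 to 0.61, all positive in the authors' deposited table. The 59 FZD regions had a median of 0.28, and of 24 tested ones 21 were positive and 17 lay under the median of 0.32 over all tested regions. The FZD4 start, whose promoter with 6 GC boxes is printed above, had the largest value, 0.61 ± 0.28 at a level of 57.2 (chr11:86954298-86956688). Its unadjusted p-value was 0.0281 and its adjusted one 0.222 in the authors' deposited table. The region also overlaps the non-coding FZD4-DT in RefSeq. FZD4 and FZD3 had no other region, and FZD3 had 0.42 ± 0.34.

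The start of FZD8 had 0.57 ± 0.28 at a level of 73.2 (adjusted p = 0.259). FZD8 regions 226.5 and 270.4 kb upstream had 1.52 ± 0.67 and 1.15 ± 0.48, at levels of 6.07 and 13.5 that were too low for adjustment in the authors' deposited table. FZD5 had 0.51 ± 0.29 at its start and FZD9 had 0.36 ± 0.39. FZD1 had 0.23 ± 0.26 at its start, with a region of level 92.6 at 33.3 kb upstream of 0.48 ± 0.24. FZD7 had 0.32 ± 0.26 at its start and FZD6 had 0.18 ± 0.24. FZD2, the receptor gene with the highest level, 240 at a region 8.5 kb from the start, had 0.16 ± 0.21 there and 0.09 ± 0.22 at the start in the authors' deposited table.

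The co-receptors had the lowest median of any role over all regions, 0.08 for 24, while their 9 tested regions had 0.23. An unadjusted p-value under 0.05 was held by 0 of the 24, beside 8.99% of all regions. LRP6 had 14 regions, 7 positive and 7 negative, and its start had 0.23 ± 0.22 at a level of 136 in the authors' deposited table. LRP5 had 10, with 0.43 ± 0.23 at distance 0 (level 82.1, unadjusted p-value 0.0628). A region of similar level within LRP5, 82.9, had -0.29 ± 0.24 in the authors' deposited table. That is 0.61 under the median of tested regions, and after that median was subtracted the unadjusted p-value was 0.0101 and the adjusted one 0.529. The LRP5 region with the most negative value had -1.07 ± 0.76 at a level of 4.60.

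Among the secreted antagonists the SFRP and DKK genes differed in their values, a difference that was not tested. SFRP tested regions, 11 in number, were all positive in the authors' deposited table, with a median of 0.52 and 8 above the median of 0.32 over all tested regions. The 16 tested DKK regions had a median of 0.13, with 10 positive, 6 negative and 14 under 0.32. Over all regions, tested or not, the medians were closer, 0.44 for the 31 SFRP regions and 0.26 for the 40 DKK regions, with 24 of 31 and 28 of 40 positive. Regions of 1 gene share a locus and are not replicates, and 9 of the 11 belong to SFRP1 and 9 of the 16 to DKK3.

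SFRP1, which binds Wnt ligands outside the cell and is often silenced in carcinomas, had 23 regions. Its region at the start (chr8:41303852-41310109) had a level of 157 and 0.63 ± 0.24 (unadjusted p-value 0.0106, adjusted 0.159) in the authors' deposited table. A region within the gene of level 144 had 0.52 ± 0.24. Beyond the end of the gene, 104.1 kb from the start, a region 9.68 kb wide (chr8:41193239-41202918, level 246) had 0.73 ± 0.22. Its adjusted p of 0.0533 from the authors' deposited table was just above the threshold. Its neighbour at 101.4 kb had 1.29 ± 0.42 at a level of 18.5 (adjusted p = 0.0752), and a region at 144.3 kb had 0.52 ± 0.22 at a level of 268. None passed. Of the 9 tested SFRP1 regions, 5 (55.6%) had an unadjusted p-value under 0.05, beside 18.4% of all tested regions in the authors' deposited table. After the median was subtracted 1 of the 9 did (11.1%), beside 5.73% of all. These regions share 1 locus and are not replicates.

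SFRP2 had 3 regions, SFRP4 had 1 and SFRP5 had 4, and the highest level among them was 56.1, at an SFRP5 region with 0.27 ± 0.29 in the authors' deposited table. The SFRP4 region, at distance 0, had a level of 5.21 and -0.01 ± 0.75.

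DKK1, which blocks LRP5 and LRP6 and is itself a beta-catenin target, was strongly marked at its start (chr10:52311261-52320922), with a level of 233 over 9.66 kb. This is the region that holds the 2 TCF/LEF matches printed above, and it also overlaps the non-coding gene PRKG1-AS1 in RefSeq. Its log2 fold change was 0.43 ± 0.19 (unadjusted p-value 0.0217, adjusted 0.203) in the authors' deposited table. A region 19.9 kb past the start had 0.88 ± 0.37 (adjusted p = 0.187). Further regions of high level lay 125.7, 135.4 and 171.8 kb from the start, with levels of 99.9, 96.8 and 77.0 and log2 fold changes of 0.32 ± 0.23, 0.27 ± 0.24 and 0.28 ± 0.24 in the authors' deposited table. They lay close to the median of 0.32 over all tested regions.

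DKK3, a divergent member of the family, had 16 regions split evenly, 8 positive and 8 negative in the authors' deposited table. Its region at the start had 0.07 ± 0.38 at a level of 22.3, which was not its highest. The highest, 7.3 kb upstream with a level of 72.2, had -0.35 ± 0.28 and an adjusted p of 0.453 in the authors' deposited table. A small DKK3 region of level 3.17 had -1.15 ± 0.89. DKK2, which blocks the co-receptors as DKK1 does, had 6 regions with levels of at most 20.1 and none at distance 0. One of them, of level 12.7 with 0.50 ± 0.51, lay over the RefSeq start, although its deposited distance was 246.8 kb.

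Scaffold and ubiquitin ligase genes had few regions. AXIN1 had 4, with 0.47 ± 0.28 at its start (level 55.7). AXIN2, a standard readout of beta-catenin activity, had 2 regions, neither at the start: they lay 198.9 and 213.0 kb away, with levels of 18.7 and 13.2 and values of 0.48 ± 0.41 and 0.72 ± 0.47 in the authors' deposited table. RNF43 had 1.16 ± 0.60 at its start at a level of 10.3, too low for an adjusted p-value, with an unadjusted p-value of 0.0521. Its other region, of level 82.6 with 0.49 ± 0.25 (unadjusted p-value 0.0441), lay 64.0 kb from the start. That region is also listed with SUPT4H1 and overlaps SUPT4H1 in RefSeq. ZNRF3 had 7 regions, with 0.40 ± 0.33 at the start (level 37.7) in the authors' deposited table.

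TCF7L2, a main partner of beta-catenin in the intestine, had the most regions of any Wnt gene, 34. The first call (chr10:112908482-112917969, 9487 bases wide) had a mean level of 261 and a log2 fold change of 0.73 ± 0.21 (adjusted p = 0.0388) from the authors' deposited table. The second (chr10:112918553-112920917) had a level of 35.1 and 1.05 ± 0.31 (adjusted p = 0.0465) in the authors' deposited table. They lay 32.4 and 29.5 kb upstream of the start of TCF7L2 and were separated by 584 bases, so they are neighbours and are not counted as independent sites. RefSeq places both over the non-coding gene LINC02935 and over no coding gene. Another region near that stretch, 44.7 kb upstream, had 0.59 ± 0.33 at a level of 31.8 (adjusted p = 0.308) in the authors' deposited table.

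The start of TCF7L2 itself carried the highest level of all Wnt gene regions, 617 over 16.05 kb (chr10:112948224-112964278). Its log2 fold change was 0.22 ± 0.20 (adjusted p = 0.506) in the authors' deposited table. Within the gene, 10 tested regions were all positive, between 0.13 and 0.64, with a median of 0.27. The most negative TCF7L2 value was -1.22 ± 0.92, at a level of 3.23. The largest value within the gene lay 122.3 kb from the start, with 0.64 ± 0.31 and an adjusted p of 0.241 in the authors' deposited table. Both calls were lost when p-values were adjusted over all distinct regions (0.0955 and 0.114) and after the median was subtracted (0.40 and 0.73 above it, adjusted p-values 0.883 and 0.671).

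The other DNA-binding factors gave no call. LEF1 had 15 regions, of which the one at the start (chr4:108164153-108169213) had a level of 101 and a log2 fold change of 0.65 ± 0.24 (unadjusted p-value 0.00699, adjusted 0.133) in the authors' deposited table. It also overlaps the antisense gene LEF1-AS1 and the coding gene LOC124900752 in RefSeq, and the mark has no strand. A neighbour 4.5 kb upstream had 0.53 ± 0.40. Of the other 6 tested LEF1 regions, 5 were negative in the authors' deposited table. These included the 4 that lay 177.0 to 208.2 kb upstream, which ran from -0.34 ± 0.36 to -0.04 ± 0.32, and where the region of highest level, 55.6, had -0.30 ± 0.25. The positive one, 106.8 kb from the start and within the gene, had 0.08 ± 0.26 at a level of 68.2. The LEF1 regions that were not tested had both signs.

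TCF7L1, which mostly acts as a repressor, had 14 regions, 13 of them positive in the authors' deposited table. Its start had 0.46 ± 0.34 at a level of 31.4, and a region within the gene had 0.68 ± 0.34 (adjusted p = 0.264). TCF7, a factor best known from T cells, had 6 regions, 2 of them positive. The one at distance 0 had 0.77 ± 0.44 at a level of 17.5, which was too low for adjustment in the authors' deposited table. In RefSeq it lies within TCF7, 5.9 kb from the start, and also over the coding gene VDAC1. The negative regions upstream of TCF7 lie over VDAC1 too.

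**Figure D4:**
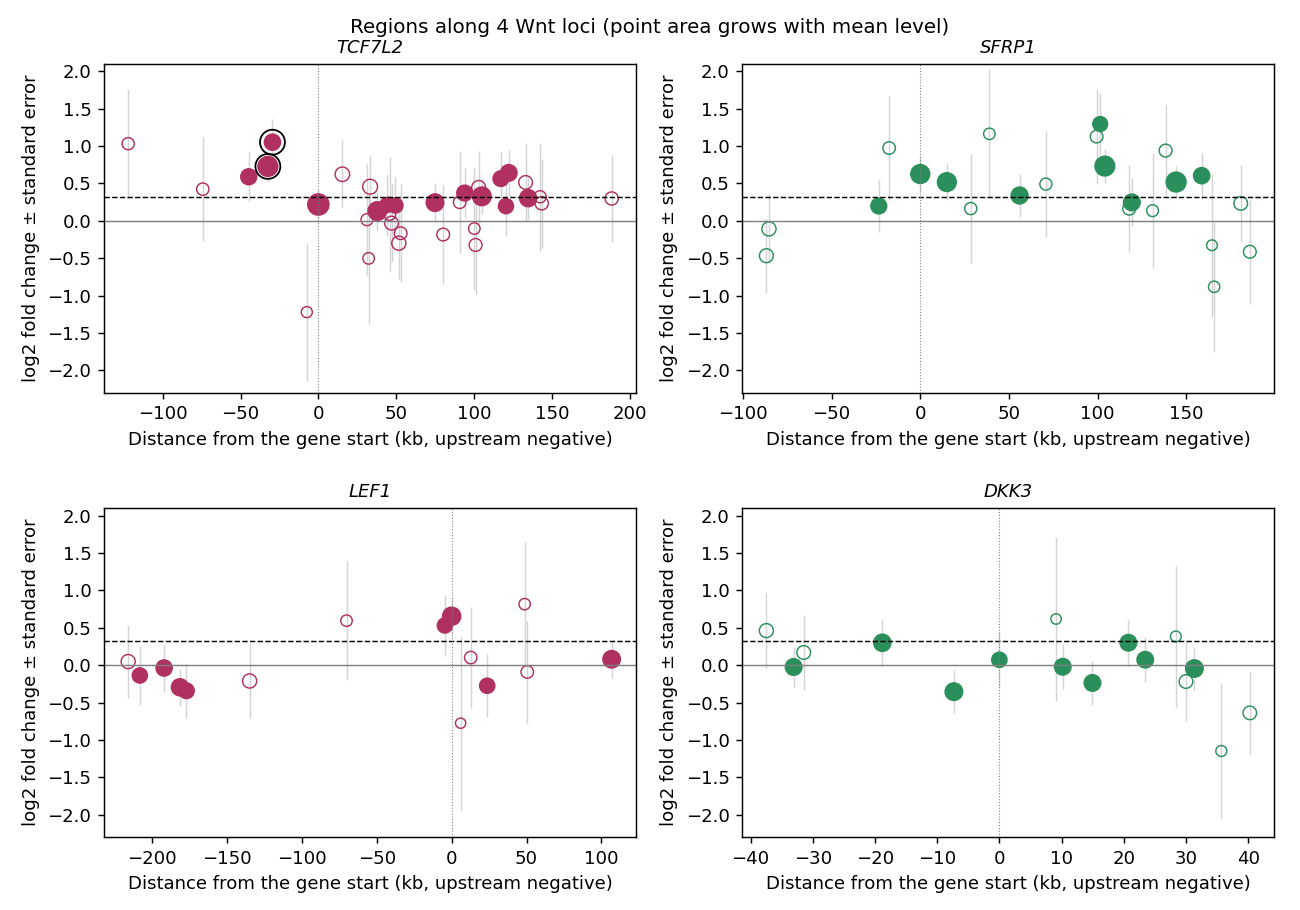
Deposited log2 fold change ± standard error of the regions of TCF7L2, SFRP1, LEF1 and DKK3 against distance from the gene start in kb (upstream negative); point area grows with mean level, open points were not tested, black circles mark the 2 calls, and the dashed line is the median of 0.32. The calls of TCF7L2 lie 32.4 and 29.5 kb upstream, the filled points of SFRP1 are all above 0, and those of LEF1 far upstream and of DKK3 lie mostly near or under 0.

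The beta-catenin feedback genes AXIN2, LEF1, TCF7, RNF43, ZNRF3 and DKK1 had 50 regions with a median of 0.26, 34 of them positive, or 68.0%, beside 0.28 and 73.7% for all regions. None was called. Their 21 tested regions included 4 with an unadjusted p-value under 0.05, or 19.0%, beside 18.4% of all tested regions in the authors' deposited table. They lay beside LEF1, DKK1 and RNF43, for RNF43 at the region away from its start that is also listed with SUPT4H1. After the median was subtracted 1 of the 21 did (4.76%, beside 5.73% of all), and it lay below the median.

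Level and fold change were also set side by side for the strongest Wnt gene regions. All 17 regions with a level of at least 100, beside 10 genes, were positive in the authors' deposited table, as were 95.3% of all 7591 regions of that level. Their median was 0.43, beside 0.31 for all regions of that level, and they ran from 0.09 at the FZD2 start to 0.73 at SFRP1 and TCF7L2. Of the 45 genes, 15 had their highest level at a region at distance 0.

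Of 62 other genes of the pathway listed for comparison, 58 had 559 regions, with a median of 0.22 and 68.7% positive in the authors' deposited table. Of the 208 tested ones, 2 were called, beside the 1.67% of all regions, and 31 (14.9%, beside 18.4% of all) had an unadjusted p-value under 0.05, of which 29 were positive. After the median was subtracted 20 of the 208 did (9.62%, beside 5.73% of all), 4 above the median and 16 below it. Over all tested regions 946 did so above it and 1140 below it. The regions named next had the smallest unadjusted p-values before that step. All of them are positive, and the 16 are not among them. The calls were a region of 3281 bases 276.1 kb from the start of TLE3, a co-repressor of TCF factors, with 0.83 ± 0.24 (adjusted p = 0.0430), and the start of KREMEN2, a DKK receptor, with 1.07 ± 0.32 (adjusted p = 0.0479). Neither passed after the median was subtracted, with adjusted p-values of 0.795 and 0.669. CTNNB1, which encodes beta-catenin, had a region 220.4 kb away with 0.83 ± 0.27 (adjusted p = 0.0761), and GSK3B, a kinase of the destruction complex, one of level 129 with 0.70 ± 0.24 (0.0979) in the authors' deposited table. Regions beside TPBG (1.21 ± 0.40), SOST (1.11 ± 0.38), CSNK1A1 (0.69 ± 0.24), TRABD2B (0.96 ± 0.34) and LGR6 (0.63 ± 0.23) had adjusted p-values from 0.0820 to 0.118 in the authors' deposited table. A USP34 region had 1.17 ± 0.42 at a level of 17.9, with no adjusted p-value.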

How the data were processed

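The labels describe H3K27ac chromatin immunoprecipitation from 4 libraries, grouped by the treatment given there. One table of the authors' own comparison was used. Submitters' processing notes name hg38 and, with no role or order, Trim Galore, cutadapt, FastQC, Bowtie2, Picard, MACS2, featureCounts, DESeq2 and bedtools 2.29.1. Per the file headers, the mean level is a signal normalized by the authors, the fold change and its standard error are log2 values, the statistic is a score, and each region has a deposited p-value and adjusted p-value. The score equalled the fold change over its standard error, and repeating the Benjamini-Hochberg adjustment on tested regions (adjusted p under 1) returned the deposited values. Depth per library is unknown, and 0 columns of single libraries were left out.

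Coordinates are printed as deposited. Lines repeating a region for another gene were merged. Distance 0, as deposited, was taken to mean that a region overlaps the start, and 25 of 29 such Wnt gene regions lay over the RefSeq start (GRCh38.p14). Exceptions were TCF7, LRP5, WNT11 and SFRP4. Conversely, 2 regions at another deposited distance lay over the RefSeq start, beside DKK2 and LRP5. For all 29 genes that had both a RefSeq promoter strand and a region away from distance 0, deposited distances pointed to the start and not the end. For the 13 genes without a RefSeq promoter entry, strand was taken from those distances. WNT10B and FZD3 were the exceptions, because their only region lay at distance 0 and gave no strand. For WNT10B and FZD3, the gene end under the region was taken as the start. For genes without a RefSeq promoter entry, the count of 25 of 29 is therefore not an independent check. TLE5 was found under an older symbol. Calls are adjusted p-values under 0.05. For centring, the median was subtracted, the authors' standard errors kept and Benjamini-Hochberg adjustment repeated. Motifs were searched as exact letters. Procedures were tested on simulated data, in Python 3.11.15 with pandas 2.3.3 and scipy 1.17.1.

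Values are given for Wnt gene regions that are called, that have the smallest unadjusted p-value of their gene if under 0.05, that lie at distance 0, or that have the highest levels or most negative statistics. Others are named to describe a locus and were chosen after their values were seen. The members and lists were chosen with earlier results of these data known. A test across libraries was not run, because the table holds no value per library.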

Additional observations from a re-analysis of the deposited data

How the results depend on the processing

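The 2 calls among Wnt gene regions and the 2 among the other pathway genes each became 0 at an adjusted p-value under 0.01, under adjustment over all distinct regions and after centring on either median, and 1 where an absolute log2 fold change of 1 was also required. The 608 calls over all regions became 128, 250, 45 (centred on regions with an adjusted p-value), 40 (centred on all regions) and 319. Stricter thresholds lower a count by construction. Leaving out each gene in turn, a choice made after seeing the data, gave 0 to 2 calls, with 0 only without TCF7L2, and medians from 0.2975 to 0.3058 log2 units. The median of Wnt gene regions, 0.30, became 0.43 at a level of at least 100, 0.45 with the highest region per gene, 0.47 at distance 0 and 0.34 with 1 median per gene (added later). The positive share of 72.5% became 78.1% at a level of at least 10, 100% at 100, 80.9% with an adjusted p-value, 84.4% with the highest region per gene and 96.6% at distance 0. The cause was not tested. Leaving out each role gave medians from 0.2566 to 0.3084 and positive shares from 71.0% to 74.0%. Of 28 single regions with an unadjusted p-value under 0.05, 2 (both TCF7L2) lost the call under centring or adjustment over all distinct regions and none gained it, and all kept their sign. Of the 28, 4 have no adjusted p-value, so centring gave none. No paired analysis was possible because no values of single libraries were analysed, and each library left out in turn was not run for the same reason. Depth per library is unknown, and regions with a level up to 18.44 carry a deposited adjusted p of 1, read as not computed.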
